A study of Mus musculus with 14 samples.

Results

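The data described here are the mRNA levels of 10 immediate-early transcription factor genes in activated mouse CD4+ T cells: the nuclear receptors *Nr4a1*, *Nr4a2* and *Nr4a3*, the zinc finger factors *Egr1*, *Egr2* and *Egr3*, the AP-1 subunits *Fos*, *Fosb* and *Fosl2*, and *Myc*. They were taken by gene symbol, or by position where a library listed the gene's locus without a name, from 49216 genes with a value in at least 1 of 14 RNA-Seq libraries, and all 10 had a value above 0 in each library. In 1 experiment naive CD4+ T cells of 4 WT and 4 HDAC1cKO-HDAC2HET samples were activated with anti-CD3 and anti-CD28 in the presence of recombinant human IL-2 for 3 days, and viable cells were sorted. HDAC1cKO-HDAC2HET mice carried 2 floxed alleles of *Hdac1* and 1 floxed allele of *Hdac2* with *Cd4*-Cre, and kept 1 *Hdac2* allele that could not be deleted. In another experiment 3 WT and 3 HDAC1cKO samples, the latter with floxed *Hdac1* and *Cd4*-Cre, were activated the same way for 3 days and given anti-CD3 again for the last 12 hours. The background was C57BL/6, the mice of the study were of both sexes and 6 to 12 weeks old, and controls were littermates. The *Cd4* promoter drives Cre from T cell development onward and in both CD4+ and CD8+ lineages, so the cells had lacked the deleted alleles before they were activated.

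Immediate-early genes are transcribed within minutes of a stimulus from factors already present in the cell, without new protein synthesis. In T cells the antigen receptor switches them on through calcium, protein kinase C and the Ras-ERK cascade. Serum response factor and its ternary complex partners act at *Fos* and *Egr* promoters, CREB and MEF2 factors act at *Nr4a* promoters, and *Myc* drives growth and entry into the cell cycle. EGR2 and EGR3 are known for restraint of T cell activation and for anergy, NR4A receptors for negative selection, tolerance and exhaustion, and FOS proteins pair with JUN proteins to form AP-1. *Nr4a1* and *Egr1* to *Egr3* are widely read as reporters of antigen receptor signalling strength.

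Promoter sequence is shown for 4 members: *Egr2* and *Fosb*, which fell at least 2-fold in HDAC1cKO-HDAC2HET cells, and the pair *Nr4a1* and *Nr4a2*, which moved in opposite directions there. The windows run from 250 bases before to 50 bases after an annotated transcript start, 5′ to 3′ on the gene's strand, in RefSeq sequence on build GRCm38.p6. They lie at chr10:67537619-67537918 for *Egr2* (plus strand), chr7:19309996-19310295 for *Fosb* (minus strand), chr15:101266596-101266895 for *Nr4a1* (plus strand) and chr2:57123954-57124253 for *Nr4a2* (minus strand). Capitals mark the CArG box of serum response factor in *Egr2* and the EGR site GCGNGGGCG, on either strand, in the other genes.
Egr2: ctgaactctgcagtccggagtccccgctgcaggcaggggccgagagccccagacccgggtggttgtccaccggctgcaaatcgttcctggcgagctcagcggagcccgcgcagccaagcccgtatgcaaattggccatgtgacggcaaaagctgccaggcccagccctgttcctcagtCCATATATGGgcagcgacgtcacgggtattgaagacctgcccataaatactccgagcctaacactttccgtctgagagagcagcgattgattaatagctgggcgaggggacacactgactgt
Fosb: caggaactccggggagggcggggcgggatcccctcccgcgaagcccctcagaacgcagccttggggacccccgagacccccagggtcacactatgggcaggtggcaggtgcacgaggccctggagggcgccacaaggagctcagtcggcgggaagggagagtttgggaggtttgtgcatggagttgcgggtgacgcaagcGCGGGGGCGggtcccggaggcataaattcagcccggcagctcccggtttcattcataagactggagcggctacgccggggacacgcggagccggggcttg
Nr4a1: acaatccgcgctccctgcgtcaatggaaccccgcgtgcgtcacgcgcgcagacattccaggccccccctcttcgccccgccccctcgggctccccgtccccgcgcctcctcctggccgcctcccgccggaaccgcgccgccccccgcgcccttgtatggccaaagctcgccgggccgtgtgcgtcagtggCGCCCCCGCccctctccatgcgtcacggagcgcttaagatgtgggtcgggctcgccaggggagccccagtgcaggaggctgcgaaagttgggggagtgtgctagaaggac
Nr4a2: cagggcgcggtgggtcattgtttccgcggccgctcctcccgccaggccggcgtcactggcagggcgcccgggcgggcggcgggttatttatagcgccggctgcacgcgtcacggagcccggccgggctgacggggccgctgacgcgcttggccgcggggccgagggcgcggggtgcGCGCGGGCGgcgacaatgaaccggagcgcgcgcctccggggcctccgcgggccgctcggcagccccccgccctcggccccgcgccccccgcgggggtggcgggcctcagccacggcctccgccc

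RefSeq windows were at hand for 7 of the 10 members, in 11 windows because *Egr2* has 5 starts. No window was at hand for *Egr3* or *Myc*, and *Egr1* is not shown. The EGR site stood in the windows of *Nr4a1*, *Nr4a2*, *Fosb* and *Fosl2*, at 60, 74, 50 and 79 bases before the start, and in 5.55% of all 32851 windows of this length. Among the 9690 windows with at least 60% G and C, as these 4 had, it stood in 16.6%. A CArG box was found in 4 of the 5 overlapping or neighbouring *Egr2* windows and in 1.63% of all windows. The matches CCATATATGG in overlapping windows are the same stretch of the genome, and the remaining match is CCTTTTTTGG. The 4 windows are thus not separate sites. In the printed *Egr2* window the box began 72 bases before the start. The letters TGACGTCA of a full cAMP response element, in 1.79% of all windows, those of an AP-1 site (TGANTCA, 7.81%) and those of an NR4A site (AAAGGTCA, 1.51%) did not occur in the members' windows. An E-box of MYC and MAX (CACGTG, 7.15%) occurred in 1 upstream *Egr2* window. All motifs were searched on both strands, and these matches are descriptions of sequence only.

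The annotated genes lie at chr15:101254269-101274795 (*Nr4a1*), chr2:57106830-57124003 (*Nr4a2*), chr4:48045153-48086447 (*Nr4a3*), chr10:67535475-67542188 (*Egr2*), chr14:70077203-70082614 (*Egr3*), chr12:85473890-85477273 (*Fos*), chr7:19302696-19310051 (*Fosb*), chr5:32135801-32157842 (*Fosl2*) and chr15:61985391-61990374 (*Myc*) in GENCODE M21 on GRCm38. All 10 are protein-coding genes that overlap no other annotated gene. The deposited *Nr4a1* locus covered 7947 bases of that span in every library. The *Egr2* locus covered 4320 bases in 7 libraries of the 3-day experiment, 6531 in HDAC1cKO-HDAC2HET replicate 4 and 6714 in all restimulated libraries, so its values rest on unlike transcript models. That replicate's *Egr2* level, 13.4 FPKM (fragments mapped to a gene, scaled to its transcript length and to library size), lay beside the 10.48 to 12.99 FPKM of the other 3.

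The deletion was visible in the libraries. *Hdac1* was 9.41-fold lower in HDAC1cKO-HDAC2HET than in WT cells (8.30 ± 1.89 against 78.1 ± 1.44 FPKM, mean ± SD, n = 4 each) and *Hdac2* 1.67-fold lower, and in restimulated HDAC1cKO cells *Hdac1* was 7.50-fold lower (n = 3 each) while *Hdac2* was 80.4 ± 6.91 against 72.4 ± 8.65 FPKM. Depth, estimated from the confidence bounds of the FPKM values, ran from about 24800000 to 58800000 fragments per library. Of the 7 T cell markers all 7 fell in HDAC1cKO-HDAC2HET cells, their summed level going from 2270–2510 to 1810–2030 FPKM, with *Cd3d* and *Cd3e* 1.58-fold and 1.47-fold lower. Between these groups 27.6% of all genes tested were lower and 24.1% higher at an adjusted p of at most 0.05. Both CD8 T cell markers rose, in sum from 3.28–5.96 to 11.7–15.2 FPKM (*Cd8b1* 2.71-fold, *Cd8a* from 0.0581 to 0.439 FPKM). So did both NK cell markers tested of 4, led by *Eomes*, a T-box factor that cytotoxic T cells express too, at 36.8 against 2.84 FPKM. Per the paper's methods CD8α+ and NK1.1+ cells were depleted before culture, and which cells held these transcripts was not tested. B cell markers summed to at most 4.38 FPKM and myeloid, dendritic and erythroid markers to at most 1.49 FPKM in any library, with 1 of 2 B cell markers tested higher (*Cd79b*, 2.76 against 0.293 FPKM). *Lyz2* and *Cd14* were at 0 in 3-day WT, *Itgax* in both WT groups and *Ncr1* in both restimulated groups. In bulk RNA fewer cells of a type and less RNA per cell cannot be told apart, and the part of these markers in the results was not tested.

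In WT cells after 3 days the members covered a wide range of levels per length. *Nr4a1*, the gene of NUR77, stood highest with 227 ± 20.9 FPKM (SD, n = 4), followed by *Myc* with 178 ± 14.5, *Egr3* with 145 ± 6.93, *Egr1* with 82.4 ± 3.10 and *Nr4a3* with 82.0 ± 4.57 FPKM. *Egr1* and *Nr4a3* overlapped, and every other neighbour in the order was separated in all 4 libraries. *Egr2* (32.5 ± 2.60), *Nr4a2* (25.5 ± 1.43), *Fosl2* (10.3 ± 1.39), *Fos* (7.17 ± 0.287) and *Fosb* (1.36 ± 0.492 FPKM) came below. *Nr4a1* lay above 97.5% and *Fosb* above 31.8% of the 15231 genes tested. In HDAC1cKO-HDAC2HET cells the order differed: *Myc* stood first with 262 ± 8.91 FPKM, *Nr4a1* with 133 ± 13.7 overlapped *Nr4a3* with 110 ± 11.4, and *Nr4a2*, *Egr1* and *Egr3* overlapped one another at mean levels of 41.0 to 43.3 FPKM.

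**Figure D1:**
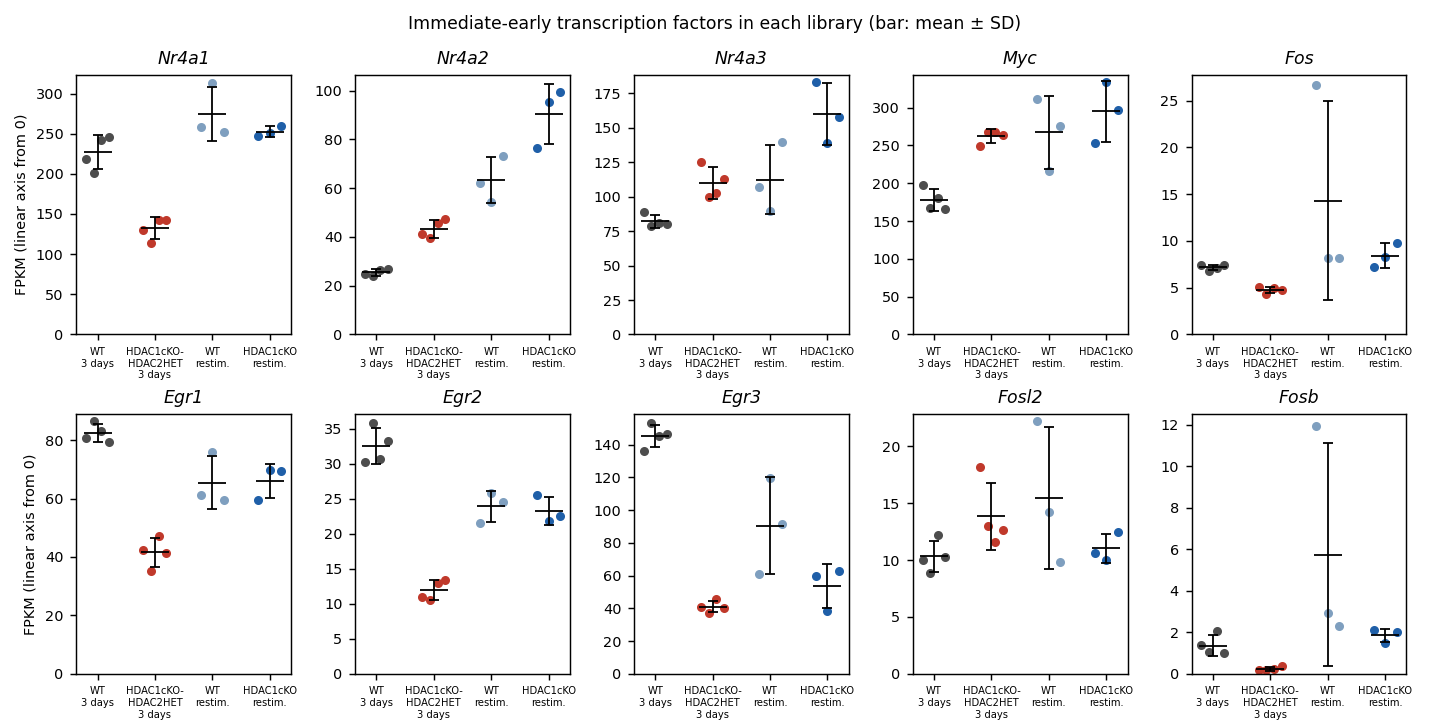
FPKM of each member in every library (points, in order of replicate number from left to right) with mean ± SD per group; each panel has its own linear axis from 0. The 3-day WT and HDAC1cKO-HDAC2HET points do not overlap except for *Fosl2*, and restimulated WT replicate 1 stands far above its group for *Fos* (26.6 FPKM) and *Fosb* (11.9 FPKM).

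Loss of HDAC1 with 1 copy of HDAC2 left was accompanied by lower EGR transcripts, a lower *Nr4a1* with higher *Nr4a2* and *Nr4a3*, lower *Fos* and *Fosb*, and higher *Myc* after 3 days. By limma with Benjamini-Hochberg adjustment over all genes, 9 of the 10 members passed at an adjusted p of at most 0.05, where 51.7% of all genes tested did. Of these, 3 were higher (24.1% of all genes) and 6 lower (27.6%), and 3 were lower by at least 2-fold, *Egr2*, *Egr3* and *Fosb* (5.6% of all genes). None was at least 2-fold higher, which 5.6% of all genes were. The groups did not overlap for 9 members (50.3% of all genes), and for these the exact permutation p was 0.0286, the smallest that 70 arrangements of 4 against 4 allow. The median log2 fold change over all genes was -0.05. The study describes the 3-day samples as independent cell batches made on the same day. For the restimulated samples the labels name no animals. WT replicate 1 expressed *Xist* (42.9 FPKM) and WT replicate 2 the Y-linked gene *Ddx3y* (18.3 FPKM), so the WT libraries were not all of 1 animal. The p values there measure the spread between these samples, which may be technical in part.

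All 3 EGR members fell. *Egr3*, a zinc finger factor that acts with EGR2 in anergy, was at 136, 153, 145 and 147 FPKM in WT replicates 1 to 4 and at 41.0, 37.4, 45.6 and 40.1 FPKM in HDAC1cKO-HDAC2HET replicates 1 to 4. The groups were far apart, with the lowest WT library at 136 and the highest mutant library at 45.6 FPKM. The mean was 3.54-fold lower, with a log2 fold change of -1.82 ± 0.06 (SE) and an adjusted p of 1.25e-06. *Egr2* was at 30.2, 35.9, 30.8 and 33.3 FPKM in WT and at 10.998, 10.48, 12.99 and 13.4 FPKM in HDAC1cKO-HDAC2HET replicates. The groups were well apart, with a mean 2.72-fold lower (log2 fold change -1.44 ± 0.09, adjusted p = 1.32e-05). *Egr1*, the most widely induced EGR factor, went from 79.4–86.5 to 35.3–47.2 FPKM, 1.98-fold lower in the mean and just short of 2-fold on the log2 scale at -0.99 ± 0.08 (adjusted p = 4.04e-05); it ranged from -0.92 to -1.06 over the settings run and reached 2-fold in 5 of them. The summed EGR level was 247 to 275 FPKM in WT and 83.2 to 106 FPKM in mutant libraries. *Egr3* made up 55.8% ± 0.603 of that sum in WT and 43.4% ± 1.11 in mutant libraries (SD, n = 4), *Egr1* 31.7% ± 0.866 and 43.9% ± 1.14, and *Egr2* 12.5% ± 0.534 and 12.7% ± 1.06.

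The NR4A receptors, orphan nuclear receptors that bind as monomers or dimers without a known hormone, moved apart. *Nr4a1* was at 219, 202, 242 and 246 FPKM in WT and at 131, 113.97, 143 and 143 FPKM in HDAC1cKO-HDAC2HET replicates, 1.71-fold lower in the mean (log2 fold change -0.78 ± 0.09, adjusted p = 0.000254). *Nr4a2*, the gene of NURR1, was at 24.7, 23.9, 26.4 and 27.0 FPKM in WT and at 41.0, 39.5, 45.7 and 47.1 FPKM in the mutant, 1.70-fold higher (log2 fold change 0.76 ± 0.07, adjusted p = 5.78e-05). *Nr4a3*, the gene of NOR1, rose from 78.5–88.7 to 99.98–125 FPKM, 1.34-fold (log2 fold change 0.42 ± 0.08, adjusted p = 0.00234). Within a library the level of *Nr4a2* relative to *Nr4a1* was 0.109 to 0.118 in WT and 0.314 to 0.346 in HDAC1cKO-HDAC2HET cells. The summed NR4A level ran from 304 to 353 FPKM in WT and from 253 to 303 FPKM in the mutant, so the highest mutant library lay just under the lowest WT library. *Nr4a1* gave 67.8% ± 1.99 of the sum in WT and 46.3% ± 2.28 in the mutant.

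**Figure D2:**
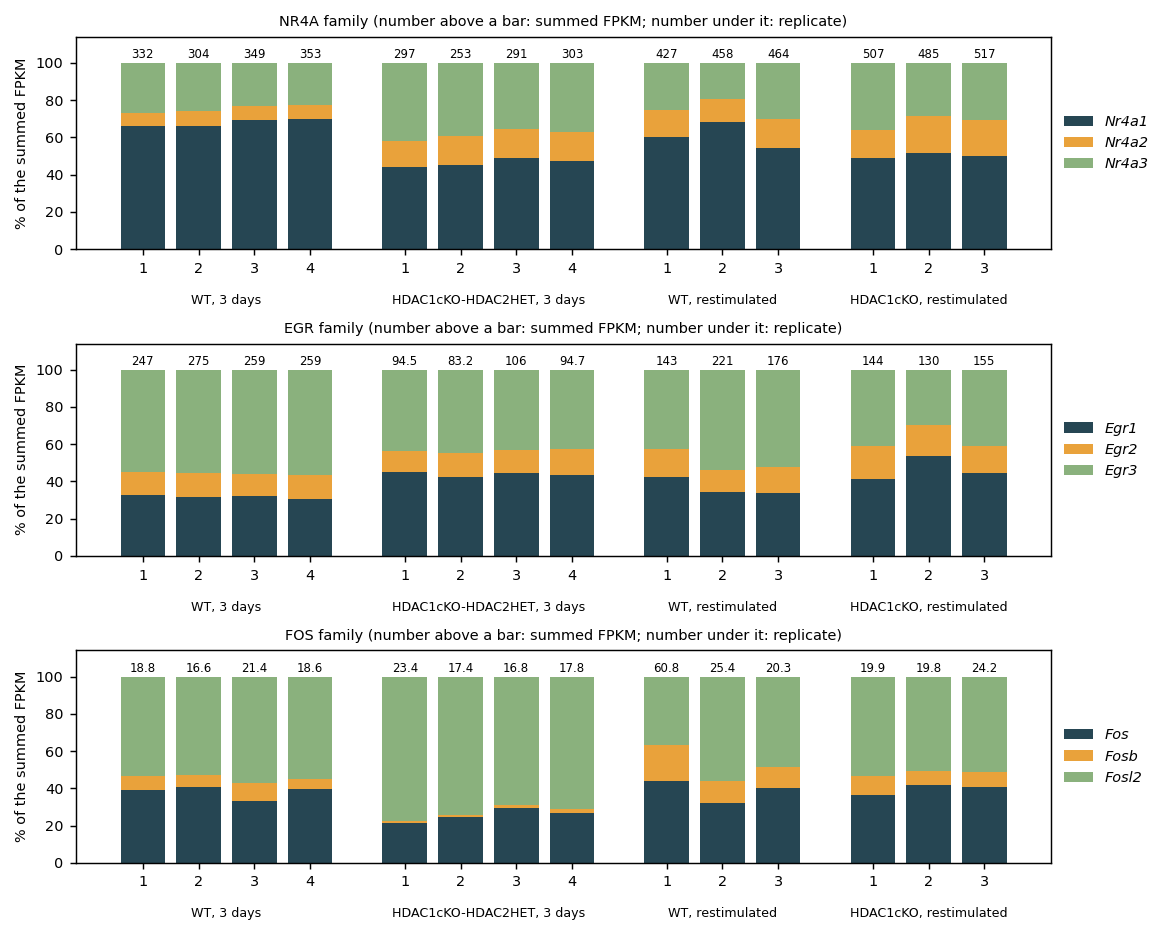
Share of each gene in the summed FPKM of its family, in percent, for the NR4A, EGR and FOS families, with 1 bar per library and the summed FPKM above it. In HDAC1cKO-HDAC2HET bars the *Nr4a1* share is smaller (44.0 to 49.1% against 65.9 to 69.7% in WT), the summed EGR level is lower, and the *Fosb* share is at most 2.05%.

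The FOS members, whose proteins pair with JUN proteins in AP-1, did not move as 1 group. *Fosb* had the largest fold change of the 10 at a pseudocount of 0.1, from 1.38, 1.02, 2.05 and 0.986 FPKM in WT to 0.174, 0.186, 0.229 and 0.366 FPKM in HDAC1cKO-HDAC2HET replicates. Its mean was 5.70-fold lower, with a log2(FPKM + 0.1) fold change of -2.08 ± 0.27 and an adjusted p of 0.00038. With its low level the value depends on the pseudocount, from -0.91 with 1, under 2-fold, to -2.46 with 0.01, and the confidence bounds of the mutant libraries correspond to only 7 to 19 fragments each. *Fos* fell from 6.79–7.41 to 4.28–5.04 FPKM (log2 fold change -0.58 ± 0.06, adjusted p = 0.000146). When all 14 libraries shared 1 estimate of the spread its adjusted p was 0.132. *Fosl2*, the gene of FRA2, was at 10.01, 8.82, 12.2 and 10.2 FPKM in WT and at 18.2, 12.97, 11.6 and 12.6 FPKM in the mutant. The groups overlapped, and its adjusted p was 0.0575 (log2 fold change 0.41 ± 0.15). Its adjusted p was 0.0388 to 0.0492 in 4 of 19 other settings, among them those without WT replicate 3 (0.0388) or HDAC1cKO-HDAC2HET replicate 3 (0.0419). *Fosl2* made up 54.6% ± 1.85 of the summed FOS level in WT and 73.0% ± 3.84 in mutant libraries, while the sum itself was alike, 18.8 ± 1.94 and 18.8 ± 3.04 FPKM.

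*Myc*, the growth factor-responsive bHLH factor that pairs with MAX, rose 1.48-fold. It was at 197, 168, 180 and 166 FPKM in WT and at 249, 267, 268 and 264 FPKM in HDAC1cKO-HDAC2HET replicates, with a log2 fold change of 0.56 ± 0.06 and an adjusted p of 0.000133. The mutant libraries were closer to each other, with a coefficient of variation of 3.40% against 8.18%.

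**Figure D3:**
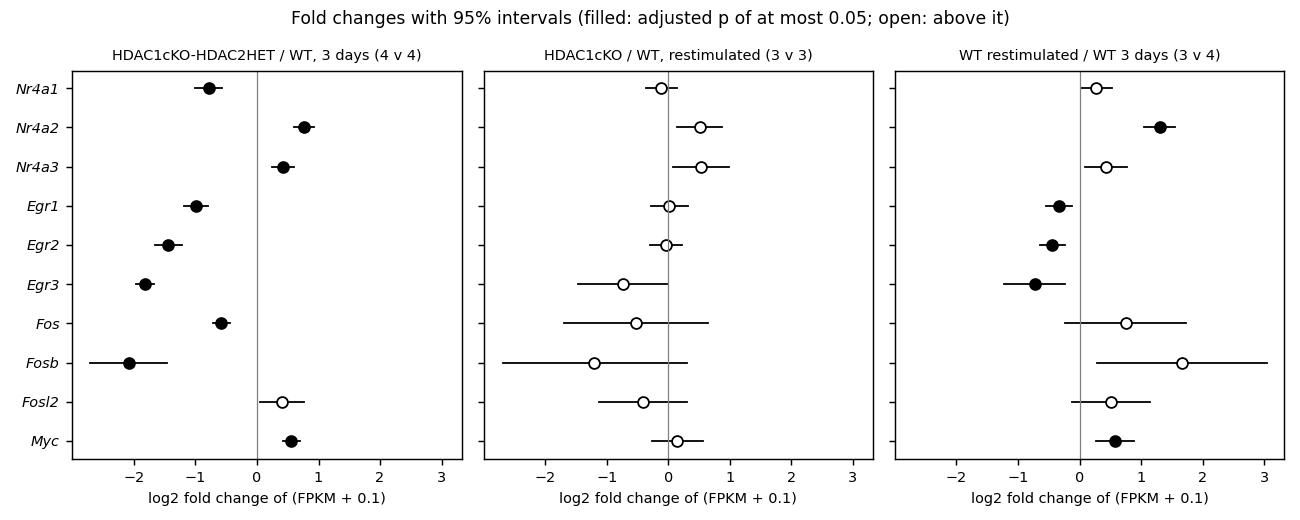
Log2 fold change of (FPKM + 0.1) with its 95% confidence interval for the 10 members in the 3 comparisons; filled points passed at an adjusted p of at most 0.05 and open points did not. The left panel holds 9 filled points, the middle panel none although *Egr3* and *Fosb* have estimates of -0.73 and -1.20 with wide intervals, and the right panel 5, with *Nr4a2* the highest of these at 1.30.

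Genes around the members were read from lists of related factors. Between 3-day HDAC1cKO-HDAC2HET and WT cells 24.1% of all genes tested passed as higher and 27.6% as lower. Of 9 AP-1 partners and remaining kin, 5 rose and 3 fell in HDAC1cKO-HDAC2HET cells, with a list median of 0.50 on the log2 scale. *Batf3* (21.3 against 2.71 FPKM), *Jdp2* (3.98 against 0.792) and *Atf3* (64.4 against 16.4), whose products are bZIP partners or repressors of AP-1, rose by 3.07, 2.18 and 2.00 on the log2 scale. Of the JUN genes, *Jun* rose from 4.61 to 9.29 FPKM (1.00 ± 0.12), while *Junb* (-0.41 ± 0.09) and *Jund* (-0.67 ± 0.05) fell. The JUN genes were named here as partners of FOS after their values were seen. *Egr4*, the remaining EGR gene, went from 2.10 to 0.192 FPKM (log2 fold change -2.92 ± 0.15, adjusted p = 4.85e-06), so that all 4 EGR genes were lower. Of 24 other immediate-early genes tested, 9 rose and 13 fell, with a median of -0.29. *Dusp6*, a phosphatase that inactivates ERK and is itself induced by ERK signalling, fell 2.81-fold from 73.4 to 26.1 FPKM. *Zfp36*, which promotes decay of cytokine mRNAs, fell 2.67-fold. *Ier3* rose from 2.89 to 8.37 FPKM and *Klf4*, a factor of quiescence, from 2.75 to 7.74 FPKM. The list therefore held changes in both directions, as the members did.

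Of 15 factors upstream of the members, 3 rose and 5 fell, with a median of 0.05, and 1 changed by at least 2-fold: *Mkl2*, a coactivator of serum response factor, at 1.51 against 3.15 FPKM (log2 fold change -1.01 ± 0.08). Serum response factor itself, *Srf*, was at 26.4 against 25.4 FPKM and did not pass (adjusted p = 0.342). *Elk3* (19.6 against 34.8 FPKM) and *Rasgrp1* (24.9 against 41.6 FPKM) were lower without overlap of the groups. Groups did not overlap for 50.3% of all genes. *Srf*, *Elk3* and *Rasgrp1* were named here after their values were seen, and the 3 upstream factors that rose are not named. Among 8 corepressors of EGR factors and genes linked to EGR2 and EGR3 in anergy, 3 rose and 3 fell. *Cblb*, a ubiquitin ligase of anergic T cells, rose from 31.2 to 68.8 FPKM (log2 fold change 1.16 ± 0.15), opposite in direction to *Egr2* and *Egr3*. *Dgka*, of the same list, was lower as they were, at 76.7–85.5 FPKM against 116–147 FPKM in WT. *Dgka* was named here for its direction. In the MYC network 3 of 11 genes rose and 4 fell, among them *Mxd4*, a MAX partner that opposes MYC (2.67 against 5.68 FPKM). Of 23 MYC target genes tested 14 rose and 3 fell, with a median of 0.22, and none reached 2-fold. Over all genes tested 24.1% were higher and 27.6% lower at an adjusted p of at most 0.05, and 5.6% were at least 2-fold higher. *Odc1* and *Srm*, enzymes of polyamine synthesis, rose by 0.92 each, from 155 to 297 and from 134 to 254 FPKM. Of 8 stress and handling genes 5 rose and 1 fell, their summed level going from 640–645 to 745–811 FPKM; the largest was *Hspb1* with 0.573 against 0.0386 FPKM. The part of these genes in the members' values was not tested.

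**Figure D4:**
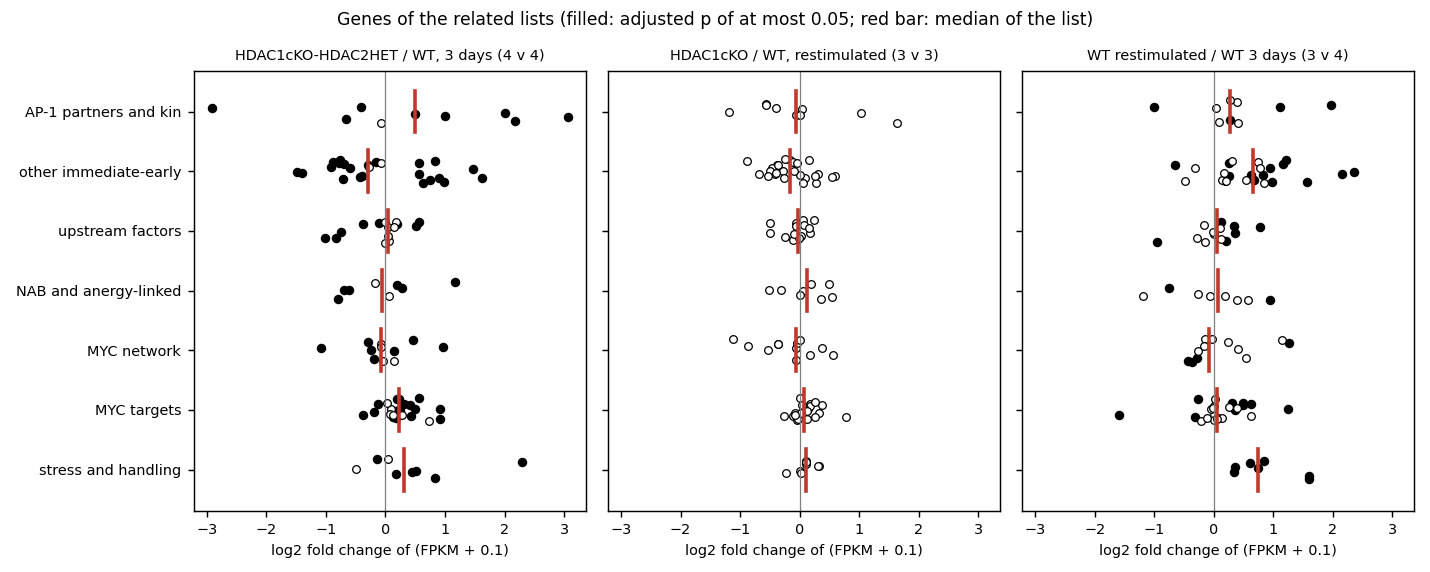
Log2 fold change of (FPKM + 0.1) of each gene tested in 7 related lists, in the 3 comparisons; filled points passed at an adjusted p of at most 0.05 and the red bar is the median of the list. In HDAC1cKO-HDAC2HET cells the AP-1 partners spread from *Egr4* at -2.92 to *Batf3* at 3.07, no gene of any list passed in HDAC1cKO cells, and 7 of 7 stress genes were higher in restimulated than in 3-day WT cells. Of all genes tested, 22.0% passed as higher in restimulated than in 3-day WT cells.

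The restimulated experiment asked the same of HDAC1 loss alone. No member passed between HDAC1cKO and WT cells with limma, where 0.0921% of all genes did (13 of 14108), and 2 members, *Nr4a2* and *Nr4a3*, had an unadjusted p under 0.05, as did 14.2% of all genes. *Nr4a2* was at 62.0, 54.3 and 73.2 FPKM in WT and at 76.4, 95.2 and 99.5 FPKM in HDAC1cKO replicates. These groups did not overlap, which was so for 22.2% of all genes, and the exact permutation p of 0.1 is the smallest that 20 arrangements allow. The log2 fold change was 0.52 ± 0.15 with an adjusted p of 0.246. *Nr4a3* was at 107, 89.9 and 139 FPKM in WT and at 183.4, 139 and 158 FPKM in HDAC1cKO cells, with a log2 fold change of 0.53 ± 0.19 (adjusted p = 0.307) and overlapping groups. In a fit of all 14 libraries both passed, with adjusted p of 0.0197 and 0.0419. That fit passed 648 genes as higher and 735 as lower, against 4 and 9 in the restimulated libraries alone. *Nr4a1* was at 258, 314 and 252 against 247, 251 and 260 FPKM, and the 95% interval of its log2 fold change ran from -0.36 to 0.14.

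For the EGR members the restimulated groups overlapped. *Egr1* was at 61.1, 75.8 and 59.6 FPKM in WT and at 59.4, 69.7 and 69.4 FPKM in HDAC1cKO cells, with an interval of the log2 fold change from -0.28 to 0.32. *Egr2* was at 21.5, 25.8 and 24.5 against 25.5, 21.8 and 22.5 FPKM, with an interval from -0.30 to 0.22, so falls of the size seen in HDAC1cKO-HDAC2HET cells lay outside both intervals. *Egr3* was at 60.7, 120 and 91.4 against 59.5, 38.3 and 63.1 FPKM. Its log2 fold change was -0.73 ± 0.30 with an adjusted p of 0.349 and an interval from -1.47 to 0.00.

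Restimulated WT replicate 1 stood apart for the FOS members. *Fos* was at 26.6, 8.18 and 8.13 FPKM in WT and at 7.19, 8.28 and 9.80 FPKM in HDAC1cKO replicates, and its log2 fold change was -0.53 ± 0.48 with that library and 0.03 without it. *Fosb* was at 11.9, 2.95 and 2.32 against 2.09, 1.502 and 2.00 FPKM, with non-overlapping groups and a log2 fold change of -1.20 ± 0.61 (adjusted p = 0.427), or -0.48 without replicate 1 (adjusted p = 0.324). *Fosl2* was at 22.2, 14.2 and 9.86 against 10.6, 10.0005 and 12.4 FPKM (-0.41 ± 0.29, and -0.11 without replicate 1). The same library was highest in its group for *Jun* (38.6 against 10.2 and 15.1 FPKM), *Klf4* (32.5 against 7.24 and 8.17) and *Gadd45b* (180 against 46.6 and 78.7), and its genes differed from those of the other WT libraries by a median of 0.233 to 0.236 on the log2 scale, against 0.125 between those 2. *Myc* was at 311, 216 and 276 FPKM in WT and at 254, 334 and 297 FPKM in HDAC1cKO cells, with an interval from -0.26 to 0.56.

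The sex of the cells also differed between these groups. The Y-linked gene *Ddx3y* was at 17 to 20 FPKM in all 3 HDAC1cKO libraries and at 18.3 FPKM in WT replicate 2, while WT replicates 1 and 3 expressed *Xist* at 42.9 and 33.2 FPKM, replicate 3 with *Ddx3y* at 1.93 FPKM as well. All 8 libraries of the 3-day experiment expressed *Xist*, at 26.0 to 65.2 FPKM. With sex as a covariate the genotypes are compared through WT replicate 2 alone against 3 HDAC1cKO libraries, the lone sample being assumed to vary like the others. In that fit *Egr3* had a log2 fold change of -1.19, *Nr4a2* of 0.72 and *Nr4a3* of 0.82, and no member passed. Without that covariate, none of the 7 related lists held a gene that passed, from 8 to 25 genes tested in each. Over all genes 0.0921% passed there. *Egr4* was at 2.40, 2.42 and 1.71 FPKM in WT and at 0.735, 0.982 and 0.979 FPKM in HDAC1cKO replicates, without overlap (adjusted p = 0.158). *Batf3*, also among the AP-1 partners and remaining kin, went the other way. Its mean was 10.3 FPKM in HDAC1cKO and 3.38 FPKM in WT cells, again without overlap (adjusted p = 0.147). Groups did not overlap for 22.2% of all genes, and both genes were named for their values. The summed NK cell markers, nearly all *Eomes*, were at 3.82–11.4 FPKM in WT and 34.0–41.7 FPKM in HDAC1cKO libraries, and the CD8 T cell markers at 3.80–4.86 and 6.52–7.30 FPKM; their part in the members' values was not tested.

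The 2 fold changes were set against each other in a fit over all 14 libraries. Genotype, culture and experiment differ together between them and cannot be told apart. Of the 10 members, 4 passed, all with a lower value in HDAC1cKO-HDAC2HET cells, where 14.6% of all 13593 genes passed and 6.94% were lower. The difference of log2 fold changes was -1.40 ± 0.14 for *Egr2* (adjusted p = 0.00014), -1.01 ± 0.15 for *Egr1* (adjusted p = 0.000984), -0.67 ± 0.14 for *Nr4a1* (adjusted p = 0.00887) and -1.09 ± 0.29 for *Egr3* (adjusted p = 0.0272). The *Egr3* call was lost without 3-day WT replicate 2 or 4, HDAC1cKO-HDAC2HET replicate 2 or 4, or HDAC1cKO replicate 1 or 3, with adjusted p of 0.0502 to 0.0665. For *Nr4a2* the difference was 0.25 with an interval from -0.10 to 0.59, and for *Nr4a3* -0.11 with an interval from -0.53 to 0.31, so the test did not separate these fold changes, neither of which passed in HDAC1cKO cells. Without restimulated WT replicate 1, *Fos* and *Fosb* passed as well, at -0.61 and -1.60 (adjusted p = 0.0141 and 0.0188). *Fosl2* passed at 1.10 without restimulated WT replicate 3 (adjusted p = 0.0239) and *Myc* at 0.56 without replicate 2 (adjusted p = 0.021).

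WT cells were compared between the cultures to see where the members stood 12 hours after restimulation. Culture and experiment cannot be told apart here: the deposited files list 51596 to 55937 loci in the 3-day and 42515 to 44059 in the restimulated libraries. Restimulated cells had more *Nr4a2* and *Myc* and less *Egr1*, *Egr2* and *Egr3*. These 5 members passed, where 33.1% of all genes did, with 2 higher (22.0% of all genes) and 3 lower (11.1%). The median of all genes was 0.11, and 0.02 when libraries were scaled to each other by median ratios, which turned 3024 higher and 1524 lower genes into 2295 and 2094. *Nr4a2* rose 2.48-fold, from 23.9–27.0 to 54.3–73.2 FPKM (log2 fold change 1.30 ± 0.10, adjusted p = 0.000204), the only member called at 2-fold, where 7.54% of all genes were higher by as much. *Myc* rose from 166–197 to 216–311 FPKM (0.58 ± 0.13, adjusted p = 0.016). *Egr2* fell from 30.2–35.9 to 21.5–25.8 FPKM (-0.44 ± 0.09, adjusted p = 0.0103), *Egr3* from 136–153 to 60.7–120 FPKM (-0.73 ± 0.21, adjusted p = 0.0367) and *Egr1* from 79.4–86.5 to 59.6–75.8 FPKM (-0.34 ± 0.09, adjusted p = 0.0284). The *Egr2* locus covered 4320 bases in the 3-day and 6714 in the restimulated WT libraries, so its FPKM rest on unlike lengths across this comparison. The part of this in its fold change was not tested. The *Egr3* call was lost without any 1 of the 4 3-day WT replicates or without restimulated replicate 3, the *Egr1* call without any 3-day replicate or without restimulated replicate 1 or 3, and the *Myc* call without restimulated replicate 3, with adjusted p up to 0.0866, 0.0808 and 0.0517. Without restimulated replicate 1 *Egr3* passed at -0.47. The exact permutation p was 0.0571 for these 5, the smallest that 35 arrangements allow.

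The other members did not pass in this comparison. *Fosb* was at 2.32 to 11.9 FPKM in restimulated and 0.986 to 2.05 FPKM in 3-day WT cells, without overlap, at a log2 fold change of 1.67 ± 0.58 (adjusted p = 0.0665) that was 0.95 without restimulated replicate 1. It passed without replicate 3 (2.11, adjusted p = 0.0477). *Fos* had a log2 fold change of 0.75 ± 0.41, and of 0.18 without restimulated replicate 1. *Nr4a1* and *Nr4a3* were 1.21-fold and 1.37-fold higher in the mean with adjusted p of 0.0932 and 0.0581, and *Nr4a3* passed without restimulated replicate 2 (0.58, adjusted p = 0.0163). That library is the male one among these WT samples, so a fit with sex as a covariate in effect leaves it out. Its result for *Nr4a3* (0.58, adjusted p = 0.0178) is therefore not a second test. *Fosl2* overlapped between the cultures and passed in 1 setting, without restimulated replicate 3 (0.79, adjusted p = 0.04). When all 14 libraries shared 1 estimate of the spread, *Nr4a1*, *Nr4a3* and *Fosb* passed as well. Groups did not overlap for 9 of the 10 members, against 43.4% of all genes. Over all genes tested between the WT cultures 22.0% passed as higher and 11.1% as lower. Of the other immediate-early genes 12 of 24 rose and 1 fell, with *Gadd45b* at 102 against 17.2 FPKM, *Klf4* at 16 against 2.75 and *Rgs1*, a regulator of G protein signalling, at 251 against 81.2. Among the AP-1 partners 3 rose and 1 fell, with *Jun* at 21.3 against 4.61, *Fosl1* at 4.31 against 1.94 and *Jund* at 74.3 against 149 FPKM. All 7 stress and handling genes tested rose, their summed level going from 640–645 to 763–1120 FPKM. Restimulated WT replicate 1 carried much of the first 2 values and of *Jun*: without it *Gadd45b* was at 62.6, *Klf4* at 7.71 and *Jun* at 12.7 FPKM, and all 3 still passed (adjusted p = 0.00437, 0.00278 and 0.00451). Without that library 13 of the 24 immediate-early genes rose and 5 fell, and 6 of the 7 stress genes rose. Of 14 upstream factors 5 rose and 1 fell, with *Rasgrp1*, which couples the antigen receptor to Ras, at 21.6 against 41.6 FPKM. *Elk3* was among those that rose, at 60.6 against 34.8 FPKM. *Nab1*, a corepressor of EGR factors, rose from 12.6 to 24.3 FPKM, and of the 8 genes in its list 1 rose and 1 fell. In the MYC network 1 of 12 rose, *Mlx* (47.9 against 20 FPKM), and 3 fell, and of 23 MYC targets 6 rose and 3 fell, with *Cdk4* at 675 against 283 and *Eif4e* at 56.4 against 170 FPKM.

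Profiles over all 14 libraries were compared with 9119 protein-coding genes for the 4 members called at 2-fold in any comparison. The measure was the root mean square difference of centred log2(FPKM + 0.1) values. The genes most like *Egr3*, whose own root mean square around its mean was 0.776, were *Spin2c* (0.193) and *Dusp6* (0.259). Those most like *Egr2* (own value 0.572) were *Snx9* (0.166) and *Stau2* (0.167), and those most like *Nr4a2* (0.683) were *Actn1* (0.159) and *Adora2a* (0.174), the gene of an adenosine receptor. For *Fosb* (1.47) the nearest, *Areg* and *Tnfsf8*, were far off at 0.532 and 0.533. These are descriptions over libraries that share genotype, culture and experiment.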

How the data were processed

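RNA-Seq libraries (stranded mRNA, 50-base single reads) of 14 samples were analysed. Per the paper's methods the authors mapped reads to mouse build mm10 with TopHat and computed FPKM with Cufflinks, and the deposited tables hold 1 library each; the submitters' processing notes list other tools (STAR, Subread, edgeR), which do not describe the deposited FPKM files. The deposited FPKM thus carry a correction for depth and length, and no count test was run. A gene without a named row was taken from the unnamed locus sharing at least 0.8 of the joint span with the gene or a transcript of it in GENCODE M21; 0 to 6 of the 10 members were listed by name in a library, and the rest were matched. Groups came from the sample labels.

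Log2(FPKM + 0.1) was fitted with limma 3.58.1 (R 4.3.3) with an intensity trend, each comparison in its own libraries and the difference of fold changes over all 14, with Benjamini-Hochberg adjustment over genes whose mean reached 0.1 FPKM. Passed means an adjusted p of at most 0.05, and called means at least 2-fold as well. Exact permutation tests were 2-sided on the same scale. The scripts were tested on simulated data. Settings changed the pseudocount, filter, scaling, trend, sample weights, locus matching, replicate block, sex, the libraries in the fit and each library in turn; 1 on loci shared over samples was chosen after seeing the data. The members and lists were chosen with earlier results of these data known. Named genes beyond the members were up to 3 called genes per list and direction, or up to 2 that passed where none was called, and the 2 genes nearest in profile to each called member. Motifs were searched in RefSeq promoter windows. Python packages were scipy 1.17.1, pandas 2.3.3, matplotlib 3.10.9 and numpy 2.4.6. Intervals rest on 3 or 4 libraries a group, and fragment numbers are estimates from the confidence bounds of the FPKM values.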

Additional observations from a re-analysis of the deposited data

Results flagged for a closer look

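For 4 members the fold change differed between HDAC1cKO-HDAC2HET cells after 3 days and HDAC1cKO cells after restimulation by the test of the difference itself: *Nr4a1* (-0.67), *Egr1* (-1.01), *Egr2* (-1.40) and *Egr3* (-1.09, log2 scale, the fold change in HDAC1cKO-HDAC2HET minus that in HDAC1cKO cells). Genotype, culture and experiment cannot be told apart in this difference. In the 3-day groups of 4 libraries no member had a library beyond Dixon's 95% critical value, in 20 groups looked at with chance giving about 1 in 20.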

How the results depend on the processing

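In HDAC1cKO-HDAC2HET against WT cells the counts of 3 higher and 6 lower members moved by less than 1.5 times in each setting that could be run, and only *Fos* and *Fosl2* changed sides of the adjusted p threshold. The 3 members lower by at least 2-fold became 2 with a pseudocount of 1 (*Fosb* at -0.91), a filter at 1 FPKM or either stricter match of loci, which left out *Egr2* or *Egr3*, and 4 in the 5 settings where *Egr1* reached 2-fold: sample weights, and without 3-day WT replicate 1 or 4 or HDAC1cKO-HDAC2HET replicate 1 or 3. With all 14 libraries in 1 fit, 2 members in place of 0 were higher in HDAC1cKO cells and 5 in place of 2 in restimulated WT cells. That fit shares 1 estimate of the spread. In HDAC1cKO cells the log2 fold changes of *Nr4a2* and *Nr4a3* stayed at 0.52 and 0.53. The part of the shared spread in these calls was not tested. Leaving out 1 library in turn gave 1 to 3 lower members in restimulated WT cells, and 0 to 1 members with a higher and 3 to 6 with a lower difference of fold changes. Directions turned for members near 0. In HDAC1cKO cells *Egr1* was at -0.20 and *Fos* at 0.03 with sex as a covariate, and leaving out 1 library gave -0.04 to 0.13 for *Egr1*, -0.12 to 0.02 for *Egr2* and -0.82 to 0.03 for *Fos*. The difference of fold changes was 0.05 for *Fosb* with a pseudocount of 1, and ran without 1 library from -0.28 to 0.04 for *Nr4a3* and from -0.61 to 0.24 for *Fos*. With the replicate number as a block 3 members were higher and 6 lower after 3 days, and 0 genes were higher and 5 lower in HDAC1cKO cells (4 and 9 without it). *Egr3* did not pass in the difference of fold changes with that block (adjusted p = 0.105). Same-numbered libraries correlated at -0.016 to 0.062 and differently numbered ones at -0.05 to 0.058. With all values near 0, this check cannot tell whether the numbers pair the libraries. Over all genes, 2-fold calls after 3 days went from 853 in each direction to 421 and 331 with a pseudocount of 1 and to 536 and 509 with a filter at 1 FPKM, which also removed *Fosb*, and those of restimulated WT cells from 1037 and 499 to 515 and 234, and to 642 and 302. In HDAC1cKO cells 4 and 9 genes became 648 and 735 in the fit of all libraries and 30 and 47 with sex as a covariate, which rests on 1 WT library. With values listed by name only, 477 and 548 genes passed after 3 days and no count of members could be made. Sex could not be fitted after 3 days, where all libraries were of 1 sex. The match of loci across samples that left out *Egr2* was chosen after seeing the data. Depth limits *Fosb* most.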
